A study of Bos taurus with 39 samples.

Results

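Cytosolic ribosomal protein genes encode the proteins of the large and small subunits of the ribosome that works in the cytoplasm. They were taken as the rows of the deposited table whose identifier is RPL, RPS or RPLP followed by a number and, at most, an A or an X. Of 73 such rows 1 is not analysed here. This gave 72 genes of 21661 features, 43 of the large subunit and 29 of the small subunit. All 72 passed the filter on low values, at least 1 RPKM (read counts divided by gene length and by library depth) in at least 17 cows. The cells were milk somatic cells, the epithelial and immune cells shed into milk, from Holstein dairy cows, 22 labelled LOW RFI and 17 labelled HIGH RFI. The labels do not spell out RFI, taken here as residual feed intake, so that a LOW RFI animal ranks as the more feed efficient one. Each cow gave 1 bulk library, and the groups share breed, tissue and protocol. The labels name no treatment, age or lactation stage.

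Every cytosolic ribosome carries a single copy of nearly all of these proteins, and their genes are active in every cell type. In mammals the messages share a pyrimidine tract at their 5′ end, through which mTOR signalling controls their translation together. In the mammary gland ribosomes serve milk protein secretion, and immune cells make more of them when they grow and divide. Mammalian genomes also hold many processed copies of ribosomal protein genes. How reads that match several places were counted is not given in the sources used here, so the level of any single member is uncertain to that extent, and no strand setting is stated.

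The libraries held 41637742 to 204905052 mapped reads, recovered from the RPKM values, and the fewest reads behind any member in any cow were 4544, for RPL36A. Markers of mammary epithelium (9 of 9 genes), neutrophils (8 of 8), macrophages (10 of 10) and T cells (8 of 8) were above 0 in every cow, so the libraries are mixtures. MS4A1, a B cell marker, and HBB and ALAS2, of red blood cells, were at 0 in some cows. Neutrophil markers summed to 24.2 to 3471 RPKM in LOW RFI and 15.9 to 3554 RPKM in HIGH RFI cows. Milk protein genes took 0.103% to 80.1% of all RPKM over the cows. In such bulk samples, fewer cells of a type and less RNA per cell cannot be told apart.

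Ribosomal protein messages made up a large share of the measured RNA in these cells. The 72 genes together took 14.2 ± 5.04% of the total RPKM in LOW RFI cows (SD, n = 22), against 13.1 ± 3.73% in HIGH RFI cows (SD, n = 17). The LOW RFI cows had a lowest share of 8.44%, a median of 13.6% and a highest of 32.9%. The HIGH RFI cows had a lowest share of 5.90%, a median of 12.8% and a highest of 18.9%. The groups overlapped over most of their range, and 12 of the 22 LOW RFI cows lay above the HIGH RFI median. On this scale LOW RFI 12 stood apart at 32.9%, since the next highest cow, LOW RFI 15, was at 19.8%. Counted as reads, which gives these short genes less weight, the members held 7.48 ± 3.09% of the reads in genes in LOW RFI cows (SD, n = 22), against 6.52 ± 2.11% in HIGH RFI cows (SD, n = 17). Without LOW RFI 12 the LOW RFI mean was 13.4 ± 2.91% (SD, n = 21). The difference between the groups was then 0.267 percentage points, against 1.16 (SE 1.41) with it. With milk protein genes left out of the total, the members held 21.6 ± 8.88% in LOW RFI cows (SD, n = 22), against 17.3 ± 7.10% in HIGH RFI cows (SD, n = 17). That difference was 4.27 points (SE 2.56), or 3.54 points without LOW RFI 12. On this scale LOW RFI 20 was highest at 38.5% and LOW RFI 12, at 36.7%, did not stand apart. The ranges of the groups still overlapped, from 10.2% to 38.5% in LOW RFI and from 6.19% to 32.0% in HIGH RFI cows.

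**Figure D1:**
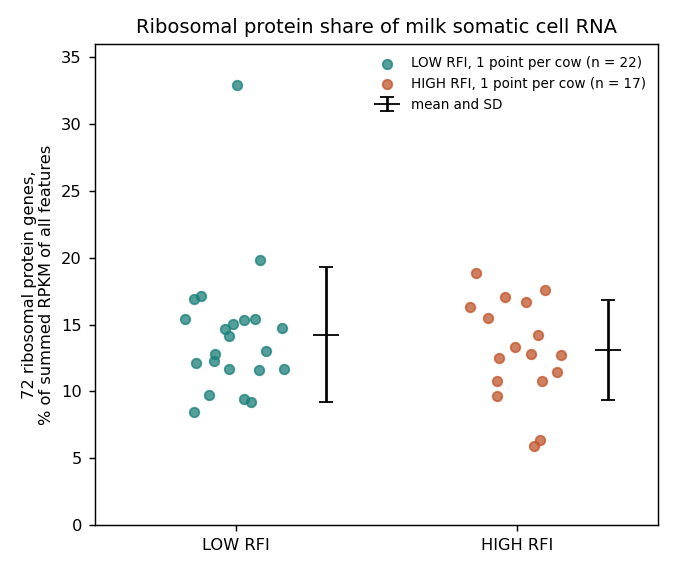
Share of the summed RPKM of all features held by the 72 ribosomal protein genes (y axis, percent), with 1 point per cow and the mean and SD of each group. LOW RFI 12 lies at 32.9%, and the other cows of both groups lie between 5.90% and 19.8%.

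Sampling months, which the column names give, were not shared evenly: the 6 cows of February 2020 were all HIGH RFI, with shares of 5.90% to 17.6%. In 3 months both groups had 2 or more cows. There the share differed by 0.0324 percentage points in September 2019 (4 LOW RFI, 2 HIGH RFI cows). It differed by -5.22 points in January 2020 (2 and 2 cows) and by 3.72 points in June 2020 (6 and 3 cows). These 3 values do not share a direction. November and December 2019 held 3 and 4 LOW RFI cows but 1 HIGH RFI cow each, with differences of 8.43 and -0.181 points.

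The cows at the ends of the ribosomal protein range differed in their cell markers. On the log2 scale, the mean of log2(RPKM + 1) over the 72 genes was 9.68 ± 0.51 in LOW RFI cows (SD, n = 22), against 9.47 ± 0.54 in HIGH RFI cows (SD, n = 17). The lowest cow, HIGH RFI 11 at 8.12, had the highest neutrophil score of all 39 cows, 8.34, where a score is the mean log2(RPKM + 1) of the marker genes. The next lowest, LOW RFI 4 at 8.80, had the next highest neutrophil score, 8.22. LOW RFI 12, the highest at 11.06, ranked 3 of 39 in T cell score (5.80) and 17 of 39 in neutrophil score. It ranked 24 of 39 in the score of the mitochondrial ribosomal proteins. HIGH RFI 17, the second lowest cow by share of RPKM at 6.37%, had the lowest neutrophil score of the 39 (1.24), the lowest T cell score (0.955) and the highest milk protein score (15.75). With milk protein genes left out of the total its share was 32.0%, the highest of the HIGH RFI cows. The part of these cell markers in the ribosomal protein level was not tested.

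The large and the small subunit kept a nearly fixed proportion in every cow. The large-subunit genes summed to 42687 ± 17495 RPKM in LOW RFI cows (SD, n = 22), against 36919 ± 12703 RPKM in HIGH RFI cows (SD, n = 17). The small-subunit genes summed to 34962 ± 14316 and 30186 ± 10288 RPKM in the same LOW RFI and HIGH RFI cows. Across the 39 cows each sum varied 7.98-fold (large) and 7.83-fold (small), but the ratio of large to small varied only 1.12-fold. Without LOW RFI 12 the sums varied 4.96-fold (large) and 4.84-fold (small). That ratio had a lowest value of 1.14, a median of 1.21 and a highest of 1.28 in LOW RFI cows. It had a lowest value of 1.16, a median of 1.22 and a highest of 1.27 in HIGH RFI cows. The groups overlapped over nearly their whole range, with a log2 ratio of 0.29 ± 0.045 in LOW RFI cows (SD, n = 22), against 0.29 ± 0.037 in HIGH RFI cows (SD, n = 17). The difference of -0.0011 (SE 0.013) was a small part of the spread between cows. What spread remained in the log2 ratio ran along with some of the cell markers, as a description over the 39 cows. Its Pearson correlation was -0.65 with the macrophage score (Spearman -0.60) and 0.56 with the milk protein score (Spearman 0.65). Without the 2 cows farthest from the median score the Pearson values were -0.58 and 0.58. The other cell scores had weaker Pearson values: -0.40 for neutrophil, 0.24 for mammary epithelium, -0.13 for B and plasma cell and -0.097 for T cell. The part of these markers in the ratio was not tested. In LOW RFI 12 both subunits were high, at 103705 RPKM (large) and 85184 RPKM (small).

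**Figure D2:**
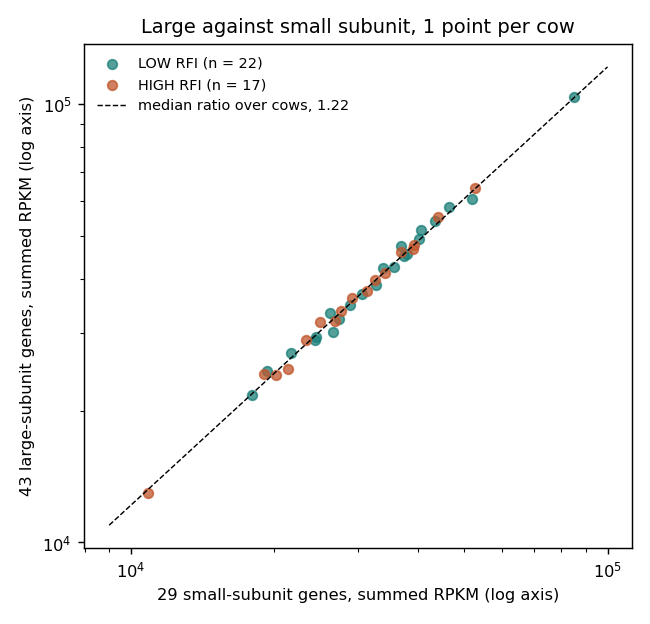
Summed RPKM of the 43 large-subunit genes (y axis) against that of the 29 small-subunit genes (x axis), both on log axes, with 1 point per cow and a dashed line at the median ratio of 1.22. Cows of both groups lie along the line over a nearly 8-fold range, with LOW RFI 12 alone at its top.

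Per gene, the small subunit was the higher one. Its members had a median level of 1098 RPKM, against 706 RPKM for members of the large subunit. The sums went the other way. The large subunit has 1.48 members for each member of the small subunit, and it holds the highest member of all, RPLP1. Without the highest member of each subunit the log2 ratio of the sums was 0.21 ± 0.033 in LOW RFI cows (SD, n = 22), against 0.22 ± 0.034 in HIGH RFI cows (SD, n = 17). The mean log2 level of large minus small members was -0.50 ± 0.041 in LOW RFI cows (SD, n = 22), against -0.50 ± 0.035 in HIGH RFI cows (SD, n = 17). The small-subunit levels lay between 331 RPKM (RPS26) and 2036 RPKM (RPS28). The large-subunit levels spread wider, between 140 RPKM (RPL22) and 4320 RPKM (RPLP1).

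Although nearly all of the proteins are needed in like amounts, their messages were not present in like amounts. Mean RPKM over the 39 cows differed 30.9-fold between the highest and the lowest member, and 2.17-fold between the upper and the lower quartile. Of the 72 members, 53 lay within 2-fold of the median member at 852 RPKM, 9 lay above that range and 10 below it. This order was largely kept from cow to cow: between pairs of cows, the Spearman correlation of the 72 levels had a median of 0.93 and a lowest value of 0.72 (741 pairs, a description across genes). The group means of LOW RFI and HIGH RFI cows ranked the members alike, with a Spearman correlation of 0.99 over 72 genes.

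**Figure D3:**
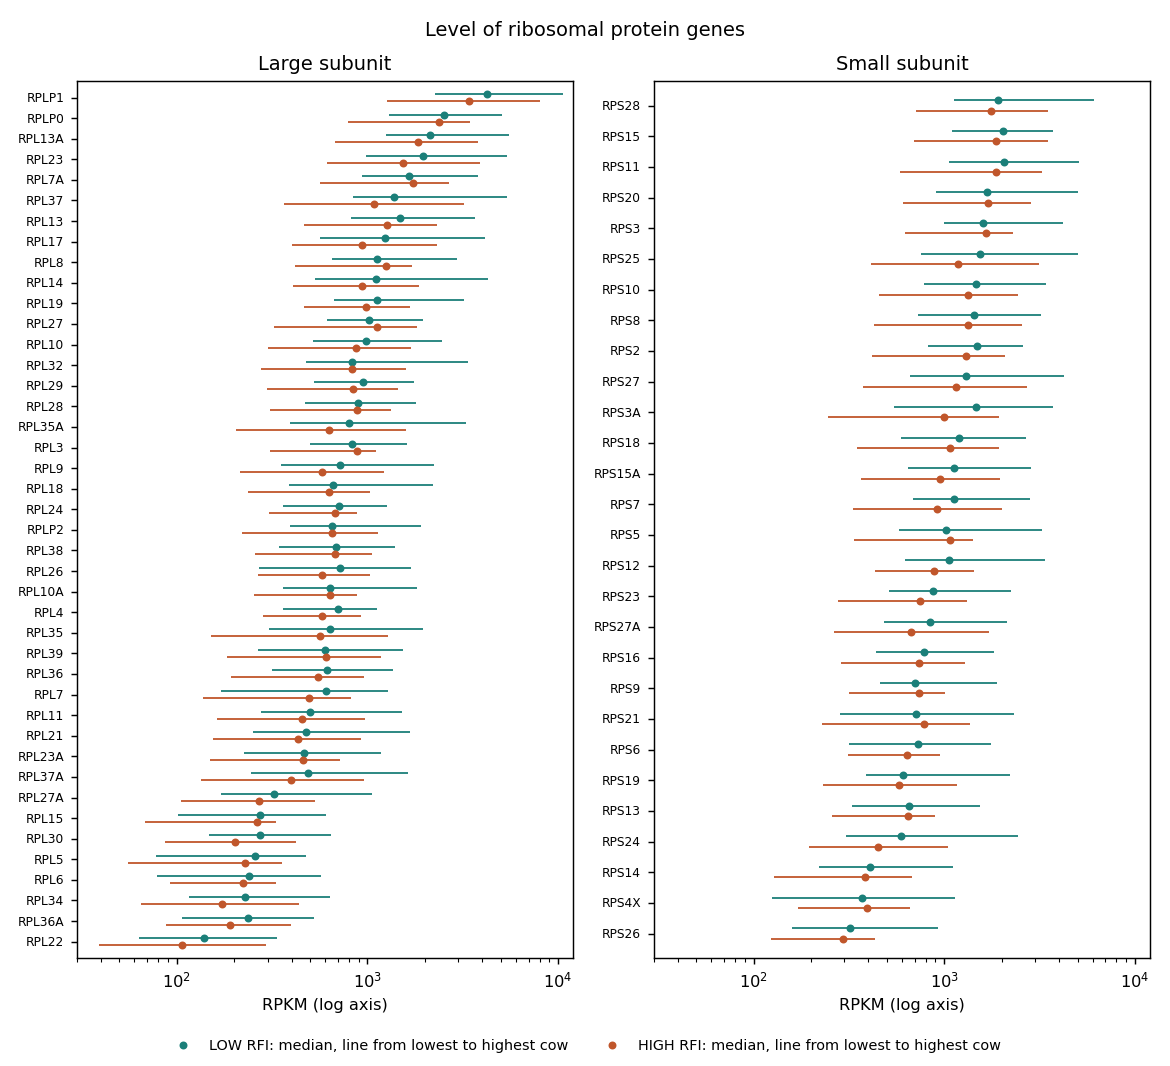
Median RPKM of the ribosomal protein genes reported by name (points) and its range from the lowest to the highest cow (lines), on a log axis, for LOW RFI and HIGH RFI cows, with genes ordered by mean level in each subunit. RPLP1 is the highest and RPL22 the lowest, and the lines of both groups overlap for every gene shown.

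Proteins of the stalk, the flexible arm that recruits translation factors to the large subunit, included the highest members. RPLP1, one of its acidic tip proteins, was the highest member in all 39 cows. RPLP1 had a lowest level of 2272, a median of 4224 and a highest of 10641 RPKM in LOW RFI cows, and a lowest of 1265, a median of 3416 and a highest of 8030 RPKM in HIGH RFI cows. RPLP0, the base of the stalk, ranked between 2 and 9 of the 72 in every cow, with a median of 2519 RPKM in LOW RFI and 2380 RPKM in HIGH RFI cows. RPLP2, the partner of RPLP1 in the dimers at the tip, was much lower, with a median of 653 RPKM in LOW RFI and 650 RPKM in HIGH RFI cows. The ratio of RPLP1 to RPLP2 was 6.39 ± 1.60 in LOW RFI cows (SD, n = 22), against 5.93 ± 0.94 in HIGH RFI cows (SD, n = 17). Its lowest value over the 39 cows was 4.23, so RPLP1 exceeded RPLP2 in every cow.

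The other members of highest level were RPL13A, RPL23 and RPS28. RPL13A, which in human myeloid cells can leave the ribosome and silence inflammatory messages, averaged 2273 ± 957 RPKM in LOW RFI cows (SD, n = 22), against 2083 ± 816 RPKM in HIGH RFI cows (SD, n = 17). RPL23, a protein of the face between the subunits, averaged 2222 ± 993 RPKM in LOW RFI and 1842 ± 832 RPKM in HIGH RFI cows. RPS28, which lies where the message leaves the small subunit, averaged 2159 ± 1035 RPKM in LOW RFI and 1877 ± 687 RPKM in HIGH RFI cows. At the other end were RPL22, RPL36A, RPL34, RPL6 and RPL5. RPL22, a protein of the outer face that mouse ribosomes can lack, was the lowest member in 32 of 39 cows, with a median of 140 RPKM in LOW RFI and 106 RPKM in HIGH RFI cows. RPL36A and RPL34 averaged 243 and 235 RPKM in LOW RFI and 192 and 203 RPKM in HIGH RFI cows.

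The order of the levels went with the gene length used for RPKM. Over the 72 members the recovered length and the mean RPKM had a Spearman correlation of -0.48, a description across genes that share the length as divisor. RPL6 with 2598 bp, RPL27A with 2428 bp, RPS14 with 2421 bp and RPL15 with 2195 bp were all below 433 RPKM, while the median length of a member was 849 bp. On the scale of RPM, reads divided by depth alone, RPS2 was the highest member at 3176 and RPL36A the lowest at 140. RPS2, at the entry of the message channel, ranked 16 of 72 by RPKM, with 2230 bp. RPL6 ranked 69 by RPKM and 42 on this scale. How far the annotated lengths match the transcripts in these cells was not tested.

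Members with roles in assembly and signalling lay in different parts of the order. RPL5 and RPL11 join the 5S ribosomal RNA in a particle that, when assembly fails, binds MDM2 and so stabilises p53. RPL11 averaged 567 ± 265 RPKM in LOW RFI cows (SD, n = 22), against 472 ± 205 RPKM in HIGH RFI cows (SD, n = 17). RPL5 averaged 259 ± 101 RPKM in LOW RFI and 225 ± 84.9 RPKM in HIGH RFI cows. Their ratio was not fixed: RPL5 over RPL11 was 0.466 ± 0.112 in LOW RFI and 0.518 ± 0.187 in HIGH RFI cows, from 0.178 in HIGH RFI 15 to 0.776 in HIGH RFI 11. RPS6, the substrate of S6 kinases, averaged 758 ± 300 RPKM in LOW RFI and 645 ± 193 RPKM in HIGH RFI cows. RPS27A, made as a fusion with ubiquitin, averaged 928 ± 401 RPKM in LOW RFI and 757 ± 357 RPKM in HIGH RFI cows. RPL3, next to the peptidyl transferase centre, averaged 834 ± 245 RPKM in LOW RFI and 808 ± 241 RPKM in HIGH RFI cows. RPS3, a protein of the message entry that is also known in DNA repair, averaged 1696 ± 676 RPKM in LOW RFI and 1594 ± 487 RPKM in HIGH RFI cows. For each of these 6 genes the ranges of the groups overlapped.

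Between the groups, no ribosomal protein gene passed the test. limma-trend on log2(RPKM + 1) called 0 of the 72 members and 0 of 10652 features tested (0%) at a Benjamini-Hochberg adjusted p of 0.05. The smallest adjusted p was 0.769, for members and for all features alike. Over all features 634 had an unadjusted p under 0.05, among them 3 members, all higher in LOW RFI cows, where 0.432% of all features had such a p in that direction. With month as a factor in the fit, 9 features and 0 members had an unadjusted p under 0.05. In the column names of 8 libraries, 7 of LOW RFI and 1 of HIGH RFI cows, a 2 follows the animal number, with a meaning not given in the sources used here. Without these libraries 107 features and 0 members had such a p, and the members' median difference was 0.16, against -0.016 for all features. The fitted difference was above 0 for all 72 members and for 2872 of the 10652 features (27%). The members' median difference was 0.20 on the log2 scale, with a range of 0.028 (RPS4X) to 0.60 (RPS3A), while the median of all features was -0.12. The large-subunit members had a median of 0.21 and the small-subunit members 0.19.

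**Figure D4:**
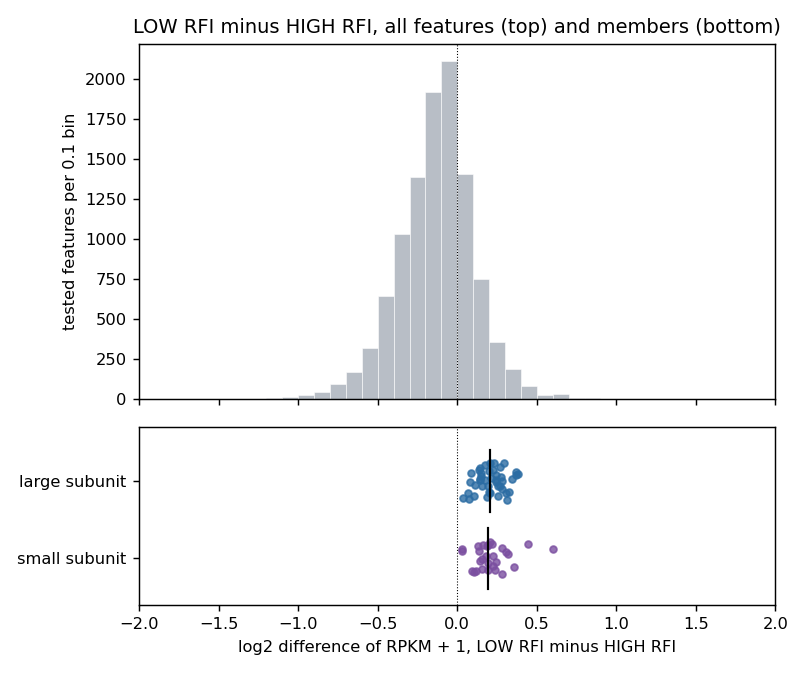
Log2 difference of RPKM + 1, LOW RFI minus HIGH RFI, for all 10652 tested features (histogram, top) and for the ribosomal protein genes of each subunit (points, bottom, with the median as a bar). The members lie between 0.028 and 0.60, and the median of all features lies at -0.12.

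The 72 directions are not 72 separate observations. The Spearman correlation of a member with the mean of the other 71 members over the 39 cows had a median of 0.92, from 0.64 (RPS4X) to 0.98 (RPS18). The members thus moved largely together across the cows. In the main fit the gap to the median of all features was 0.32. Bringing all columns to an equal total moves all features almost alike, so it could not change that gap. The members' median was then 0.12, with 66 of 72 above 0. Quantile normalization left the gap at 0.22 (72 of 72). Without LOW RFI 12 the members' median was 0.14, with 69 of 72 above 0, against -0.12 for all features. Without the 4 libraries least correlated with the rest the members' median was 0.084, with 59 of 72 above 0, against -0.14 for all features. Within the 3 months that held 2 or more cows of each group (19 cows) the members' median was 0.048, with 49 of 72 above 0. It lay below the median of all features, 0.086. With mammary epithelium and neutrophil scores in the fit the members' median was 0.079, with 66 of 72 above 0. The median of all features was then -0.0025, which left a gap of 0.082.

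The members with the smallest unadjusted p were RPS3A, RPL30, RPS24, RPL36A and RPL9, and none of them passed. RPS3A, a protein of the platform of the small subunit, had a lowest level of 548, a median of 1469 and a highest of 3708 RPKM in LOW RFI cows. In HIGH RFI cows RPS3A had a lowest level of 246, a median of 995 and a highest of 1933 RPKM. The ranges overlapped widely, and the log2 difference was 0.60 (SE 0.25, unadjusted p = 0.0230, limma adjusted p = 0.769). RPL30, whose yeast counterpart binds its own transcript, had medians of 272 RPKM in LOW RFI and 202 RPKM in HIGH RFI cows and a difference of 0.38 (SE 0.18, unadjusted limma p = 0.0456). RPS24, one of the genes mutated in human Diamond-Blackfan anaemia, had medians of 595 RPKM in LOW RFI and 451 RPKM in HIGH RFI cows and a difference of 0.45 (SE 0.22, unadjusted limma p = 0.0483). Without LOW RFI 12, which held the highest level of all 3 genes, the unadjusted limma p was 0.0382 for RPS3A, 0.0771 for RPL30 and 0.0832 for RPS24. With month in the fit it was 0.167 for RPS3A, 0.109 for RPL30 and 0.161 for RPS24. RPL36A differed by 0.35 and RPL9 by 0.37.

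Once the shared level of each cow was taken out, most members varied little. The level of a member was set relative to the mean log2(RPKM + 1) of the 72 genes in the same cow, and its SD over the 39 cows was taken. The median SD was 0.21 log2 units, against 0.56 before the shared level was removed. The steadiest members included RPS18 with an SD of 0.10, RPL36 with 0.12, RPS14 with 0.13 and RPS26 with 0.14. RPS18, a protein of the head of the small subunit, stayed between 0.19 below and 0.22 above its own mean relative level in every cow. The members that varied most were RPS3A with an SD of 0.56, RPL7 with 0.56, RPL5 with 0.45, RPS4X with 0.39 and RPL6 with 0.38. Both subunits held steady and varying members, with a median SD of 0.22 in the large and 0.20 in the small subunit. Neither the length nor the level of a gene ran along with its SD, with Spearman correlations of -0.014 and -0.15 over the 72 genes.

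Most of the varying members moved together. The first principal component of the relative levels held 36.5% of their variance, and RPS3A, RPL7, RPL5, RPL9 and RPL6 had the largest weights at one end of it. RPS21, RPL27, RPL3 and RPL8 had the largest weights at the opposite end. Over the 39 cows the relative levels of RPL7 and RPL5 had a Pearson correlation of 0.88 (Spearman 0.89), those of RPL5 and RPL6 0.86 (0.81), and those of RPS3A and RPL7 0.73 (0.67). RPS4X, although among the 5 members of largest SD, had a smaller weight of 0.12 at the same end, against 0.41 for RPS3A and 0.37 for RPL7. Its relative level had a Pearson correlation of 0.23 with RPS3A (Spearman 0.19) and of 0.45 with RPL7 (0.47). RPS3A and RPL8 ran against each other at -0.71 (-0.75). Relative levels sum to 0 within a cow, so some members must fall when others rise, and these values are a description. The pattern crossed the subunits, since RPS3A is of the small and RPL7, RPL5, RPL9 and RPL6 are of the large subunit.

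**Figure D5:**
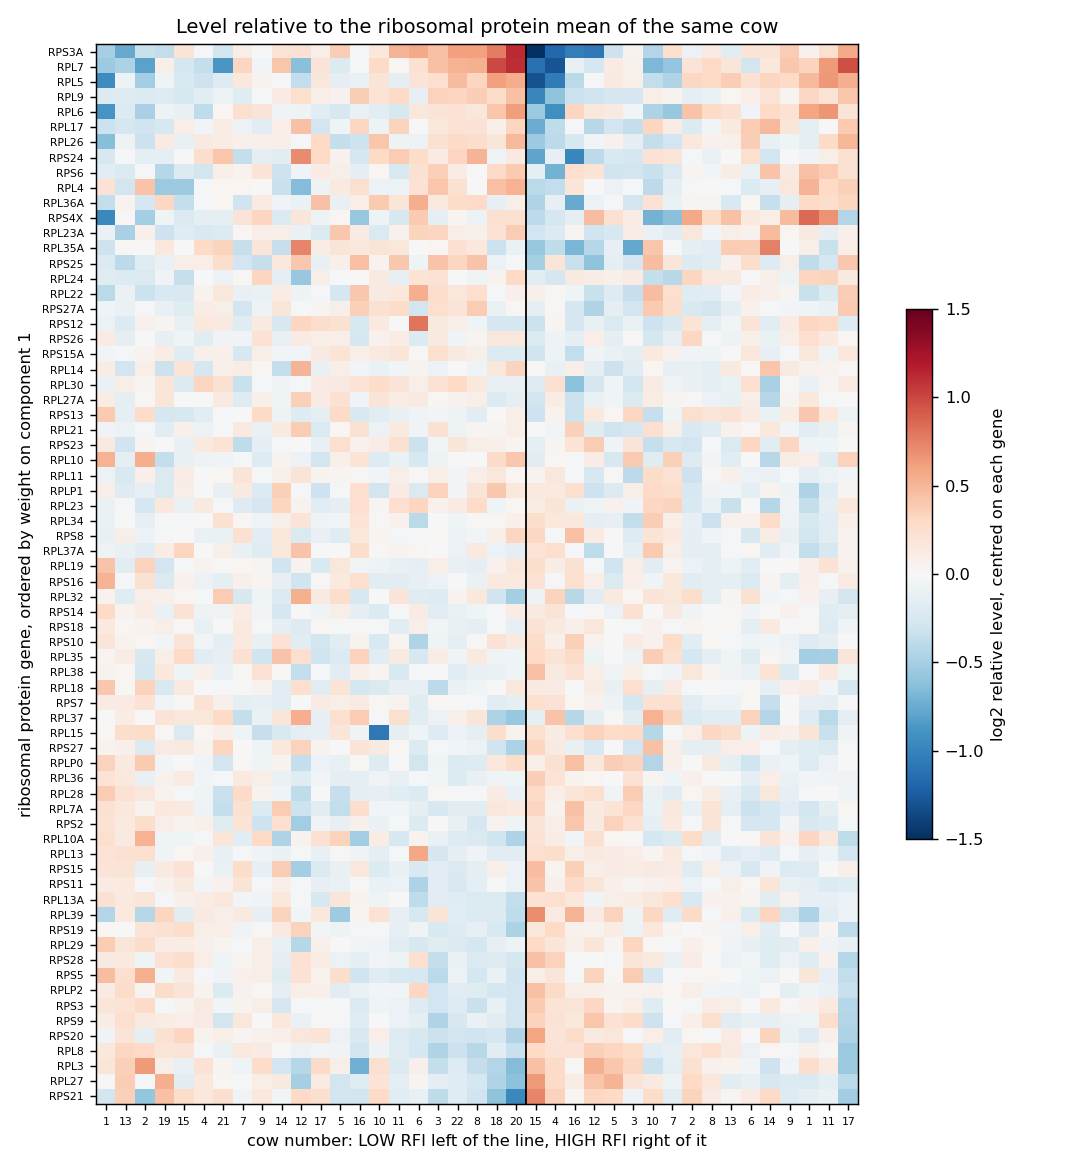
Log2 level of the ribosomal protein genes reported by name, relative to the ribosomal protein mean of the same cow, centred on each gene (colour), with genes ordered by their weight on the first component and cows ordered along it within LOW RFI (left) and HIGH RFI (right). RPS3A runs from 1.12 in LOW RFI 20 to -1.53 in HIGH RFI 15, while RPS18 stays near 0 in every cow.

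Single cows carried the extremes of this pattern in both groups. LOW RFI 20 had the highest relative levels of RPS3A and RPL7, 1.12 and 1.11 above their means on the log2 scale. In HIGH RFI 15 RPS3A was at -1.53, RPL5 at -1.31 and RPL7 at -1.12. HIGH RFI 4 showed the same set low, with RPS3A at -1.18, RPL7 at -1.30 and RPL5 at -1.04. HIGH RFI 12 and HIGH RFI 16 were low for RPS3A, at -1.07 and -1.03, but not for RPL7, at -0.25 and -0.11. RPS4X went its own way in single cows: it was at 0.46 in HIGH RFI 12, and at -0.44 in HIGH RFI 17, where RPL7 was at 0.97. Against RPS18, the steadiest member, RPS3A had a ratio of 1.25 ± 0.439 in LOW RFI cows (SD, n = 22), against 0.958 ± 0.381 in HIGH RFI cows (SD, n = 17). This ratio spanned 8.00-fold over the cows, from 0.306 in HIGH RFI 15 to 2.44 in LOW RFI 20.

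Relative to the ribosomal protein mean, no member passed either. In the limma fit on relative levels 0 of the 72 members and 1267 of the 10652 features had an unadjusted p under 0.05, and 0 features passed after adjustment (smallest adjusted p 0.404). The scale centres the members' differences on 0 by construction, so their balance of directions says nothing about the groups. The relative difference ran from -0.18 (RPS4X) to 0.39 (RPS3A, unadjusted limma p = 0.0515). The SE of the RPS3A value was 0.19.

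Outside the 72 genes, the features most like the ribosomal protein mean included other genes of the same machinery. RPS29_2, a row for another small-subunit gene that the name rule leaves out, had a Spearman correlation of 0.92 with that mean over the 39 cows, and TPT1, a growth-related gene whose message shares the pyrimidine tract, was at 0.91. PFDN5, a subunit of the prefoldin chaperone, was at 0.91, ZC3H10 at 0.90 and PSMG4, a proteasome assembly chaperone, at 0.89. Of the 10 most similar features 3 were listed under Ensembl identifiers only. The most similar of all was NPAS2, a circadian transcription factor, at 0.97, with 182 ± 101 RPKM in LOW RFI cows (SD, n = 22), against 152 ± 68.7 RPKM in HIGH RFI cows (SD, n = 17). In the ARS-UCD2.0 annotation NPAS2 lies next to RPL31, a ribosomal protein gene outside the 73 rows that met the name rule. Whether reads of RPL31 are counted in the NPAS2 row was not tested. Over all other tested features the median correlation was -0.12.

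Genes of the wider translation machinery followed the ribosomal proteins to unequal degrees. Of 22 translation factors and other genes with a 5′ pyrimidine tract, 0 passed in either direction, with a median difference of 0.088, and their median Spearman correlation with the ribosomal protein mean was 0.47. TPT1 averaged 4312 ± 1550 RPKM in LOW RFI cows (SD, n = 22), against 3974 ± 1224 RPKM in HIGH RFI cows (SD, n = 17). Of the 12 genes listed as paralogs and fusion genes outside the name rule, 9 were tested and 0 passed. FAU, which encodes a small-subunit protein fused to a ubiquitin-like one, averaged 1330 ± 508 RPKM in LOW RFI and 1337 ± 421 RPKM in HIGH RFI cows, with a correlation of 0.87.

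The factors that build ribosomes were lower in level and in their correlation with the ribosomal proteins. Of 32 ribosome biogenesis genes 0 passed in either direction. A difference above 0 was found for 1 of them and below 0 for 31, where 27% of all features lay above 0. Their median difference was -0.17, close to the -0.12 of all features, and their median correlation with the ribosomal protein mean was -0.17. FBL, the methyltransferase of the box C/D particles, averaged 60.7 ± 23.1 RPKM in LOW RFI cows (SD, n = 22), against 66.8 ± 22.5 RPKM in HIGH RFI cows (SD, n = 17). NCL, nucleolin, averaged 57.5 ± 27.8 RPKM in LOW RFI and 77.7 ± 40.5 RPKM in HIGH RFI cows. The 76 mitochondrial ribosomal proteins, which serve the separate ribosomes of mitochondria, were much lower, with a median level of 18.5 RPKM. Of these 0 passed in either direction, and 31 were above 0 and 45 below, where 27% of all features lay above 0. They had a median difference of -0.020 and a median correlation of 0.18 with the cytosolic mean. MRPL41 averaged 116 ± 27.6 RPKM in LOW RFI and 111 ± 31.4 RPKM in HIGH RFI cows, and MRPL27 86.8 ± 22.2 RPKM in LOW RFI and 90.7 ± 28.1 RPKM in HIGH RFI cows. Of 11 genes of S6 kinase and mTOR control of translation 0 passed in either direction, with a median difference of -0.082. EIF4EBP1, a repressor of cap-dependent translation that mTOR inactivates, averaged 149 ± 54.7 RPKM in LOW RFI and 126 ± 28.5 RPKM in HIGH RFI cows, and RHEB, the activator of mTOR, 51.6 ± 11.4 RPKM in LOW RFI and 51.0 ± 11.3 RPKM in HIGH RFI cows.

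Across cows the ribosomal protein mean ran along with markers of some cell types, as a description over libraries that share their scaling. With the macrophage score it had a Pearson correlation of -0.26 and a Spearman correlation of -0.44 over the 39 cows, and a Pearson correlation of -0.43 without the 2 cows farthest from the median score. With the neutrophil score the Pearson and Spearman values were -0.42 and -0.37, and -0.24 was the Pearson value without the 2 farthest cows, HIGH RFI 11 and LOW RFI 4. With the T cell score they were 0.43 and 0.37, and 0.46 without the 2 farthest. With the milk protein score they were 0.32 and 0.40, and 0.27 without the 2 farthest. The share of RPKM without milk protein genes ran more closely with some of these scores. Its Pearson and Spearman correlations were -0.83 and -0.80 with the macrophage score and -0.66 and -0.64 with the neutrophil score. With the milk protein score, built from the genes left out of that total, they were 0.69 and 0.81. These values are from 24 relations computed, 8 measures against the mean level, this share and the subunit ratio. None of the 8 neutrophil or 10 macrophage markers had a difference above 0 in LOW RFI cows, where 27% of all features did. None of the 18 passed, and the medians were -1.01 for neutrophil and -0.44 for macrophage markers. An unadjusted limma p under 0.05 was found for 3 neutrophil markers, all lower in LOW RFI cows, and for 0 macrophage markers. Over all 10652 features 634 had such a p. The part of these markers in the differences of the ribosomal protein genes was not tested beyond the fit with epithelium and neutrophil scores. No fit held a macrophage score.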

How the data were processed

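The authors deposited RPKM values for 39 cows, 1 column per cow, per the file headers. The submitters' processing notes name ARS-UCD1.2 as the build. The sources used here do not give an aligner, a counting tool or an annotation. Columns were matched to cows through the animal number in the labels, and a number after the group, as in LOW RFI 12, only names the cow. Reads, gene lengths and library totals were recovered from the whole-number steps of the RPKM values within 0.02 reads, for all 10652 tested features. Recovery was checked on simulated reads. The test was checked on values shuffled gene by gene with set differences added. That shuffle keeps no correlation between genes, no months and no cell mixture, so the check does not cover them.

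The test was limma-trend (limma 3.58.1, R 4.3.3, robust empirical Bayes) on log2(RPKM + 1), keeping features that reached 1 RPKM in 17 or more cows, with Benjamini-Hochberg adjustment over all 10652. A log2 fold change on this scale understates changes of low genes. Other quantities were computed in Python 3.11.15. All 72 symbols matched the ARS-UCD2.0 annotation, which was used for names and neighbours only. The members, lists, tests and alternatives were chosen with earlier results of these data known. Members were named by smallest unadjusted p, by highest and lowest mean level, by largest and smallest SD of the relative level, or by role. Outside the members, the 10 features most like their mean and the 2 highest genes of each pathway list were named. Alternatives were other scalings, pseudocounts, filters, covariates, libraries left out and limma-voom. Dropping LOW RFI 12 was added after seeing the data. The column names give a month, and some carry a further number whose meaning is not given in the sources used here. No other mark of a batch was found. Of the features that these rules or the figures would name, some are not reported here by name, though the members among them stay in all counts and sums.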

Additional observations from a re-analysis of the deposited data

How the results depend on the processing

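No paired analysis was possible because replicate numbers are names in label order. Under all 15 alternatives 0 features and 0 members passed an adjusted p of 0.05 in limma-trend or limma-voom (634 features at an unadjusted p under 0.05 in limma-trend, 253 in limma-voom). The members' median difference lay between -0.010 and 0.31, and turned below 0 in the fit on levels relative to the ribosomal protein mean, at -0.010, where its construction centres it. In that fit RPS4X was at -0.18, RPLP0 at -0.054, RPS6 at -0.0087 and RPL5 at -0.012. RPS4X also turned below 0 with columns brought to an equal total (-0.056), with epithelium and neutrophil scores (-0.066), without the 4 least correlated libraries (-0.12), within the 3 months that held 2 or more cows of each group (-0.11) and without LOW RFI 12 (-0.050). Within those months RPS6 was at -0.15 and RPL5 at -0.14. The cause was not tested. The log2 ratio of large to small subunit, at -0.0011, was -0.044 from medians. The share difference stayed between 0.267 and 4.27 points, the highest with milk protein genes left out of the total. The 5 members of largest SD were the same 5 in both alternatives. Months that hold a single group, and 17 HIGH RFI cows, limit all comparisons.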

Other observations

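Single cows also held the extreme relative levels of a few members outside this pattern. RPL15, a large-subunit protein, was 1.08 log2 units below its own mean relative level in LOW RFI 10, with its highest relative level at 0.35. LOW RFI 6 held the highest relative levels of RPS12 (0.80) and RPL13 (0.58) among the 39 cows. Other members were also highest in that cow, among them RPL22 (0.55) and RPL36A (0.54). Both the 2 cows and the genes named in them were picked with their values in view.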
